A study of Mus musculus with 2 samples.

Results

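Mitochondrial ribosomal protein genes were followed in hematopoietic stem and progenitor cells of nondiabetic and diabetic mice. The genes were those whose mouse symbol is Mrpl or Mrps followed by digits alone, which gave 75 genes, 49 for the large (Mrpl) and 26 for the small (Mrps) subunit, out of 21360 genes that could be named on the arrays. All 75 symbols of this form in the reference table had a probe. The cells were LSK cells, the Lineage-, Sca1+, ckit+ fraction of bone marrow that holds the hematopoietic stem cells, sorted from C57BL/6J mice. Diabetes had been induced with streptozotocin (STZ), a toxin taken up by the insulin-producing beta cells of the pancreas. Each condition had 1 array, described as cells from 3 mice, and 8.3 ng of total RNA was amplified before labeling with Cy3. The labels call the mice of both arrays female and give neither their age nor the time after STZ. The untreated or buffer-treated state of the nondiabetic mice is likewise not given in the labels.

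The mitochondrial ribosome, or mitoribosome, is the ribosome inside mitochondria. It translates only the few proteins that mitochondrial DNA encodes, which are core subunits of the respiratory chain and of ATP synthase, whereas all of its own proteins are encoded in the nucleus, made in the cytosol and imported. The small subunit binds and decodes the mRNA, and the large subunit joins the amino acids and guides the new chain toward the inner membrane. Many of the proteins have counterparts in bacterial ribosomes, and the others were added in the lineage that led to mitochondria. Hematopoietic stem cells are known for low mitochondrial activity, and inherited defects in several of these genes cause disease of energy-demanding organs.

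Intensities are the scanner software's processed, background-subtracted signals as deposited, before scaling. Ratios are diabetic over nondiabetic on the log2 scale, after each array had been divided by its 75th percentile (168.2 on the nondiabetic and 182.5 on the diabetic array), so a log2 ratio of 0 means no difference relative to that percentile. A gene was called different where its ratio was at least 2-fold. There was no replicate array, so the spread between mice or between preparations is unknown and no test or p-value is given. In amplified RNA of a sorted population, fewer cells of a type and less RNA per cell cannot be told apart.

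Of the LSK markers, 10 of 11 were well above background on both arrays. Kit had intensities of 4635 and 4735 on the nondiabetic and diabetic array, and Ly6a, which encodes Sca1, had 475 and 701. The markers did not all go the same way, with 8 log2 ratios above 0 and 3 below. Mecom read 182.5 and 86.15 (-1.20), with -0.16 on its second probe, and Procr had -0.59. Slamf1 cleared the background on the diabetic array alone, so it was at least 2.59-fold higher. The summed intensity of the LSK markers was 18777 and 22345. Markers of other cell types summed to 4547 and 3833 for T and NK cells (Cd8a well above background on neither array), 106.9 and 209 for B cells (Ms4a1 on neither), 40455 and 40348 for granulocytes and monocytes (Ltf on neither), 2422 and 5531 for erythroid cells, 356 and 619 for megakaryocytes, and 193 and 965 for stroma and endothelium (Col1a1 and Cdh5 on neither). Single genes made up most of several sums. Itgam, of the granulocyte and monocyte list, read 34686 and 35189 by its brightest probe, while its other probes had log2 ratios of -1.12 and -1.30. Nkg7 read 3291 and 2582.5 in the T and NK list, Hba-a1 1984 and 4967 in the erythroid list, and Pecam1 162 and 936 in the stroma and endothelium list. The sums therefore do not measure the share of a cell type. The part of these other cell types in the differences given for the ribosomal protein genes was not tested.

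Every one of the 75 genes was well above background on both arrays by its brightest probe, which stands for the gene here, against 63.0% of all named genes. The median intensity over the genes was 271 on the nondiabetic and 338 on the diabetic array, and no spot was saturated. In diabetic LSK cells 5 genes (6.67%) were 2-fold higher or more, namely Mrps6, Mrpl36, Mrps27, Mrpl21 and Mrpl28. Another 5 (6.67%) were 2-fold lower or more, namely Mrpl43, Mrps15, Mrpl53, Mrpl1 and Mrpl48. Among all 13467 named genes well above background on both arrays, 9.44% were 2-fold higher and 8.44% were 2-fold lower, so the ribosomal protein genes lay near that background in both directions. The remaining 65 genes lay within 2-fold. Of the 75 log2 ratios 43 lay above 0 and 32 below, with a median of 0.09 and a middle range of -0.35 to 0.46. Over all named genes 7773 lay above 0 and 7419 below, with a median of 0.02 and a middle range of -0.41 to 0.47.

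**Figure D1:**
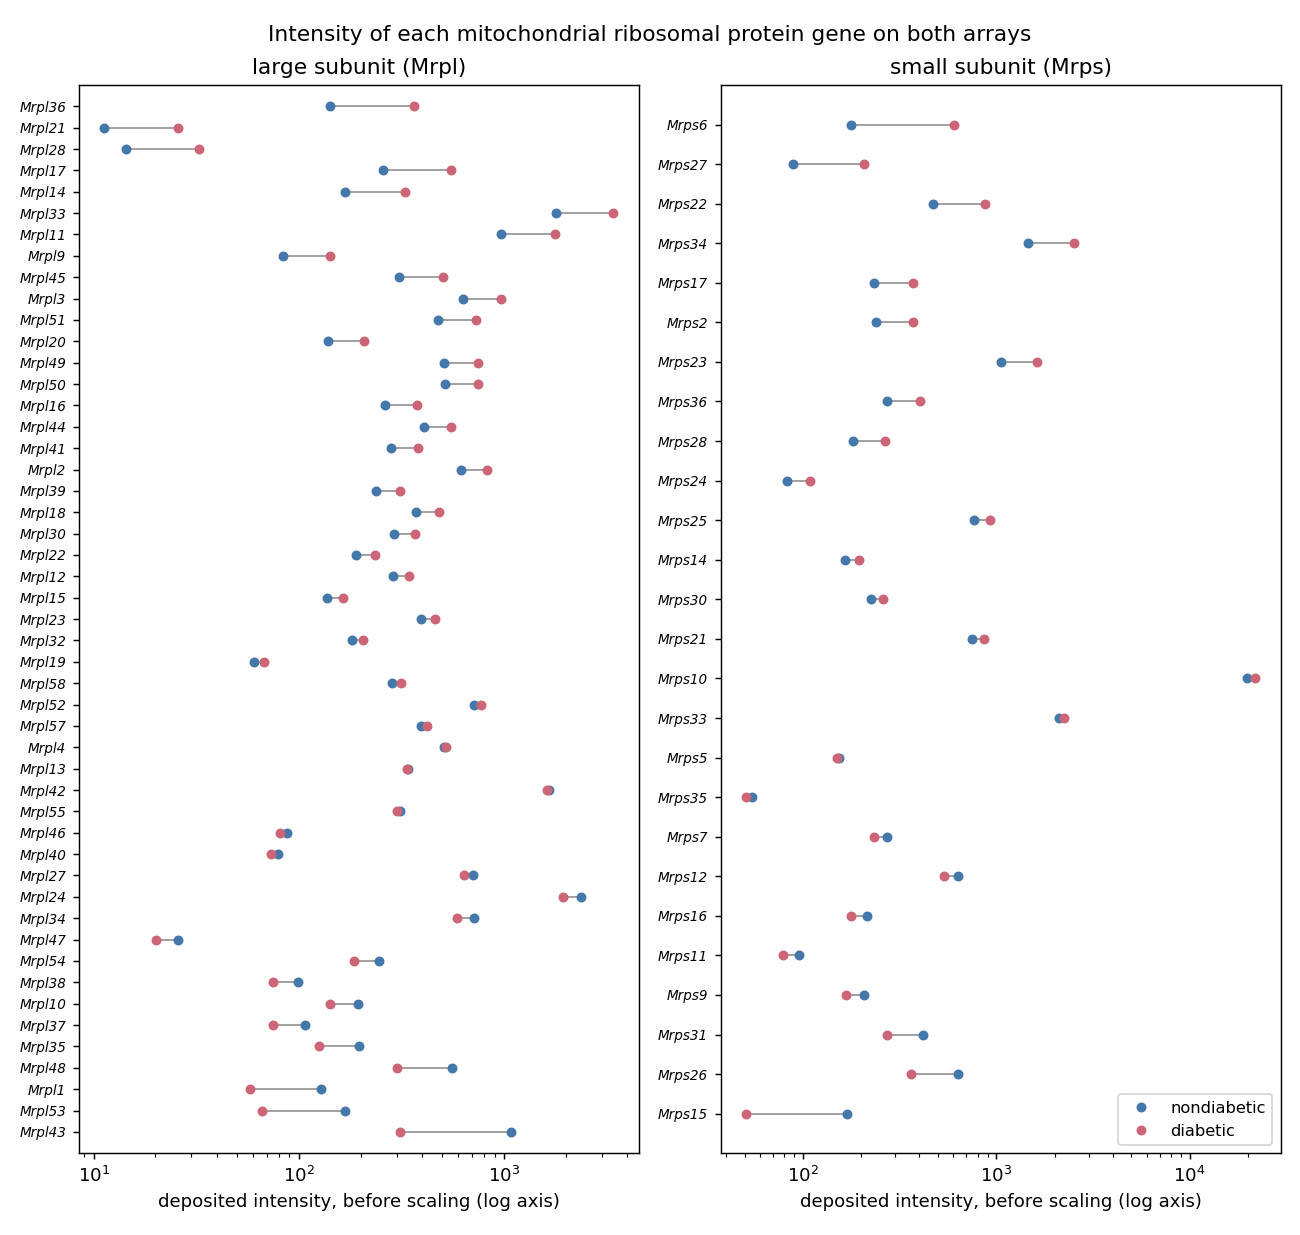
Deposited intensity (horizontal, log axis) of each Mrpl gene (left) and each Mrps gene (right) on the nondiabetic (blue) and diabetic (red) array, 1 array each and no error bars, ordered by the log2 ratio from highest to lowest. Most pairs of points lie close together, while Mrps6 and Mrpl36 at the top are further right on the diabetic array and Mrpl43 and Mrps15 at the bottom are further left.

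The share past 2-fold went with brightness. Genes measured on both arrays were divided by mean signal into 3 equal groups, and 23.9% of all genes in the dimmest, 22.9% in the middle and 6.86% in the brightest group differed by at least 2-fold. The ribosomal protein genes followed with 2 of 6 (33.3%), 6 of 37 (16.2%) and 2 of 32 (6.25%). By the error that the scanner software gives for each spot, which covers error within an array only, 37 of the 75 genes (49.3%) had a ratio larger than 2 errors, 24 higher and 13 lower, against 46.0% of all genes.

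The gene with the lowest ratio was Mrpl43, which encodes a large-subunit protein with no bacterial counterpart. Its intensity was 1082 on the nondiabetic and 313 on the diabetic array, 3.75-fold lower after scaling (log2 ratio -1.91, scanner error 0.20). The second probe of the gene read 156 and 38.6, a log2 ratio of -2.14, so both probes were lower on the diabetic array by a like amount. Mrps15, a small-subunit protein shared with bacteria, followed with 168 and 50.9, 3.59-fold lower. Mrpl53, another protein particular to mitochondria, had intensities of 168 and 66.2, 2.76-fold lower. Mrpl1 forms the mobile stalk beside the site where spent tRNA leaves the large subunit. It read 129 and 57.8, 2.41-fold lower. Mrpl48 lay at the limit, with 557 and 301, 2.005-fold lower after scaling. The next gene outside it was Mrps26, with 631 and 364 and -0.91. Apart from Mrpl43, each of the lower genes rests on 1 probe printed at 1 spot.

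On the higher side Mrps6 stood furthest out. This small-subunit protein, shared with bacteria, had intensities of 176 and 601 on the nondiabetic and diabetic array, 3.14-fold higher (log2 ratio 1.65). Mrpl36, a small zinc-binding protein of the large subunit, read 142 and 364, 2.36-fold higher. Mrps27, a pentatricopeptide repeat protein of the small subunit with no bacterial counterpart, had 89.1 and 208, 2.15-fold higher. Both remaining genes were among the dimmest of the 75. Mrpl21 read 11.3 and 25.9, 2.12-fold higher, and Mrpl28 read 14.3 and 32.6, 2.10-fold higher. On the nondiabetic array the lowest intensity well above background was 10.2. The scanner error of the log2 ratio was 0.36 for Mrpl21 and 0.33 for Mrpl28 against a median of 0.20 over the genes. All of the higher genes rest on 1 probe and 1 spot. Mrpl17 lay just below the limit, with 257 and 551 and a log2 ratio of 0.98.

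Many of these genes share a start region with a neighbor transcribed in the opposite direction. In the GRCm38.p6 annotation, 22 of the 75 genes had a start site within 500 bases of that of a gene on the other strand, which made 21 pairs, and 20 pairs had a ratio for both genes. The neighbors were looked up after the values of the ribosomal protein genes had been seen. At least 1 gene was past 2-fold in 7 pairs, and 1 pair, Mrpl43 and Twnk, had both genes past 2-fold in the same direction. Of all single named genes on both arrays, 17.9% were past 2-fold in either direction, and of the 75 ribosomal protein genes 13.3%. A pair counts where either of its 2 genes passes, which happens more often than for 1 gene alone. The background for pairs was not computed. Twnk encodes Twinkle, the helicase that replicates mitochondrial DNA. Its probe read 192 on the nondiabetic and 18.4 on the diabetic array, a log2 ratio of -3.50. The annotation also gives Twnk a further start inside Mrpl43, so the stretch between both main starts lies within that longer transcript. Sars2, the mitochondrial seryl-tRNA synthetase, starts opposite Mrps12, which encodes a protein of the decoding center. Sars2 read 53.5 and 287, a log2 ratio of 2.31, while Mrps12 read 633 and 537, a log2 ratio of -0.35. In 1 pair both genes encode mitoribosomal proteins, Mrpl46 (-0.23) and Mrps11 (-0.38), whose starts are 41 bases apart. Mrps27, 2.15-fold higher as given above, faces Ptcd2 (log2 ratio 0.34), which also encodes a pentatricopeptide repeat protein of mitochondria.

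The sequences between the starts of these 4 pairs are shown because each pair joins a ribosomal protein gene to another gene of mitochondrial gene expression. They come from the RefSeq start regions of GRCm38.p6 and read 5′ to 3′ in the direction of the ribosomal protein gene named first. Each stretch therefore begins beside the start of the gene named second and ends beside that of the gene named first. Capitals mark the letters CCGGAAG or their reverse complement CTTCCGG, the core bound by ETS factors such as GABPA.
Mrpl43 to Twnk, chr19:45006443-45006557, minus strand: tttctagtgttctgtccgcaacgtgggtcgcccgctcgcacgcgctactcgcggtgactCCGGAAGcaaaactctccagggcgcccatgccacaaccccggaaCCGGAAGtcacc
Mrps12 to Sars2, chr7:28741822-28741967, minus strand: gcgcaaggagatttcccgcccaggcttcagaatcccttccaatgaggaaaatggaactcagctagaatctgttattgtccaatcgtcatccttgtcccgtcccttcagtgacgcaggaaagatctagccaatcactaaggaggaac
Mrpl46 to Mrps11, chr7:78783090-78783130, minus strand: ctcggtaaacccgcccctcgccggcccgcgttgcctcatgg
Mrps27 to Ptcd2, chr13:99344679-99344785, plus strand: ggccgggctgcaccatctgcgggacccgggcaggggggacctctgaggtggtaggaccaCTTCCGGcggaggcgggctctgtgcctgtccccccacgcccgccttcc
The Mrpl43 stretch held the ETS letters 2 times and the Mrps27 stretch 1 time, and the other two held none. The longer start region of Mrps12 also held them, outside the stretch shown. Mrpl43 and Mrps27 differ in the direction of their ratios.

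Among the other pairs, Klc4, a kinesin light chain gene opposite Mrpl2, read 57.9 and 382, a log2 ratio of 2.61, beside 0.30 for Mrpl2. Cyb5rl, opposite Mrpl37, read 161 and 30.8 with -2.51, beside -0.64 for Mrpl37. Hira, a histone chaperone gene opposite Mrpl40, had a log2 ratio of -1.24, beside -0.24 for Mrpl40. Ighmbp2, a helicase gene opposite Mrpl21, had -0.35, beside 1.08 for Mrpl21. In 6 of the 7 pairs the partner of the gene past 2-fold lay within it.

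**Figure D2:**
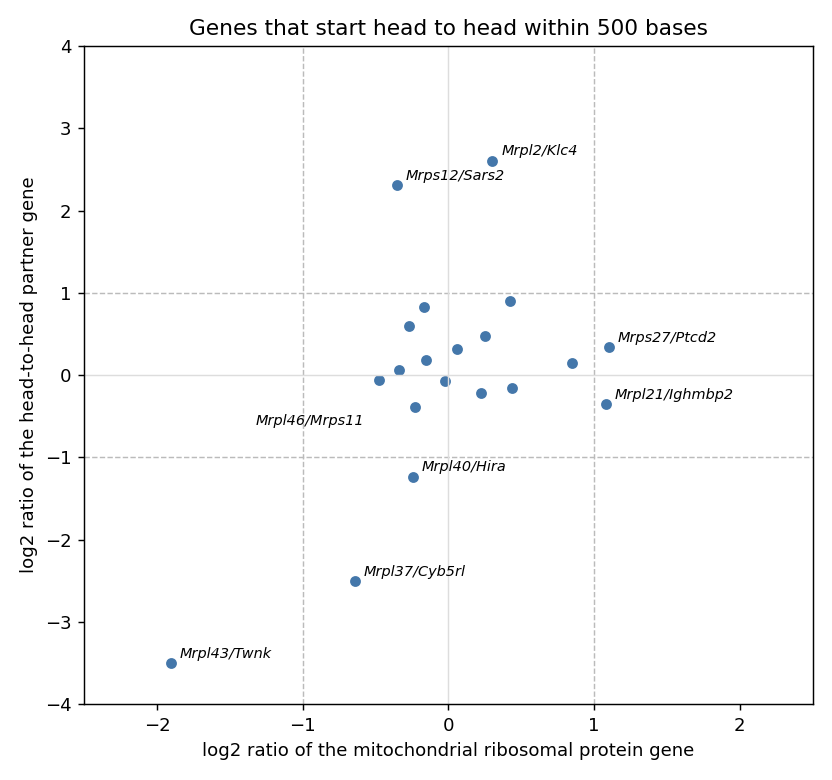
Log2 ratio (diabetic over nondiabetic) of the ribosomal protein gene (horizontal) and of the gene starting opposite it within 500 bases (vertical), 1 point for each of the 20 pairs with both values, with dashed lines at 2-fold. Only Mrpl43 with Twnk lies past both lines, and 6 pairs lie past one of them.

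By subunit, the 49 Mrpl genes had a median log2 ratio of 0.11 (middle range -0.27 to 0.44) with 3 genes past 2-fold higher and 4 lower. The 26 Mrps genes had a median of 0.09 (middle range -0.35 to 0.49) with 2 higher and 1 lower. The medians thus differed by 0.02 on the log2 scale, and the middle ranges overlapped.

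Within the large subunit, 4 genes for proteins near the peptidyl transferase center were read by name. Mrpl3, Mrpl16, Mrpl2 and Mrpl27 had log2 ratios of 0.50, 0.41, 0.30 and -0.27, the last being the one below 0. The stalk that recruits translation factors was split. Mrpl11 at its base went from 964 to 1767 (0.76), Mrpl12 from 288 to 346 (0.15), and Mrpl10, to which Mrpl12 binds, from 194 to 143 (-0.56). The second probe of Mrpl10 gave 0.15, so its direction depends on the probe.

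Around the tunnel through which the new protein leaves, Mrpl45, which anchors the ribosome to the inner membrane, had intensities of 309 and 505 and a log2 ratio of 0.59. Mrpl22, Mrpl23, Mrpl4 and Mrpl24 had 0.18, 0.11, -0.08 and -0.40, with the opposite sign on the second probe of Mrpl22. Mrpl44, which has an RNase III-like fold, had 0.32, and Mrpl58, a peptidyl-tRNA hydrolase that releases stalled chains, had 0.03. None of these genes was past 2-fold. Beside those already named, the highest ratios of the large subunit were those of Mrpl14 (167 and 328, 0.85) and Mrpl33 (1796 and 3408, 0.81), and the next lowest was that of Mrpl35 (197 and 125, -0.77).

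Small-subunit genes showed a like spread. Mrps12, at the decoding center, has been given above, and Mrps2, Mrps5 and Mrps24, which lie near the entry of the mRNA, had log2 ratios of 0.53, -0.15 and 0.27, with the opposite sign on the second probe of Mrps2. The platform and head proteins Mrps11, Mrps7 and Mrps14 had -0.38, -0.34 and 0.12, with the opposite sign on the second probe of Mrps7. The genes Mrps22, Mrps34 and Mrps16, mutated in human mitochondrial disease, differed in direction. Mrps22 read 473 and 874 (0.77) and Mrps34 read 1466 and 2507 (0.66), whereas Mrps16 read 214 and 178 (-0.38). Mrps17 had 0.56. On the lower side Mrps31 read 419.9 and 272 (-0.74) and Mrps9 read 207 and 167 (-0.42). Mrps10 was level, with 19765 and 21778 and a log2 ratio of 0.02.

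The genes were also divided by whether the protein has a bacterial counterpart, a split made after the values had been seen. Of 29 such genes in the large subunit, 3 were past 2-fold higher and 1 lower, with a median log2 ratio of 0.18. Of the 20 without a counterpart, 0 were higher and 3 were lower, with a median of -0.09, beside the 9.44% and 8.44% of all named genes given above. In the small subunit the medians lay the other way, 0.02 over 15 genes with a counterpart (1 higher, 1 lower) and 0.16 over 11 without (1 higher, 0 lower). The middle ranges of all 4 groups overlapped.

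Symbols do not always match the place of the protein. Mrps30, named for the small subunit but found in the large subunit, had a log2 ratio of 0.09. Mrps36, now known as a subunit of the 2-oxoglutarate dehydrogenase complex, had 0.45. Another 8 genes encode mitoribosomal proteins under symbols outside the naming rule, and 0 of them were past 2-fold. Their median log2 ratio was -0.21. The values were -0.88 for Mrps18a, 0.37 for Mrps18b and 0.54 for Mrps18c, 3 forms of the same bacterial protein. Those of Dap3, the GTP-binding protein of the small-subunit head, Ptcd3, Chchd1, Aurkaip1 and Gadd45gip1 were -0.02, -0.54, 0.70, -0.72 and -0.40, with 0.49 on the second probe of Dap3.

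How far 1 probe can be trusted was read from genes with a second probe and from probes printed many times. Of 21 genes with a second probe, 20 had both measured, since neither array had the second probe of Mrpl39 well above background. The directions matched in 13 genes and were opposite in 7, so that the direction given for these 7 depends on the probe. Beside Mrpl10 they were Mrpl15 (0.14 and -0.72), Mrpl22 (0.18 and -0.78), Mrpl47 (-0.47 and 0.09), Mrps2 (0.53 and -0.16), Mrps7 (-0.34 and 0.11) and Mrps25 (0.16 and -0.10). The median difference between both log2 ratios was 0.48, with a range of 0.00 to 1.62. Mrpl50 had the widest difference and the only one over 2-fold. Its brighter probe read 514 and 749 (0.42), and its dimmer probe read 44.6 and 199 (2.04). Second probes past 2-fold beside a brighter probe within it were also those of Mrps14 (1.08 beside 0.12), Mrpl41 (1.12 beside 0.32) and Mrpl4 (-1.07 beside -0.08). Mrpl43 was the one gene with both probes past 2-fold.

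**Figure D3:**
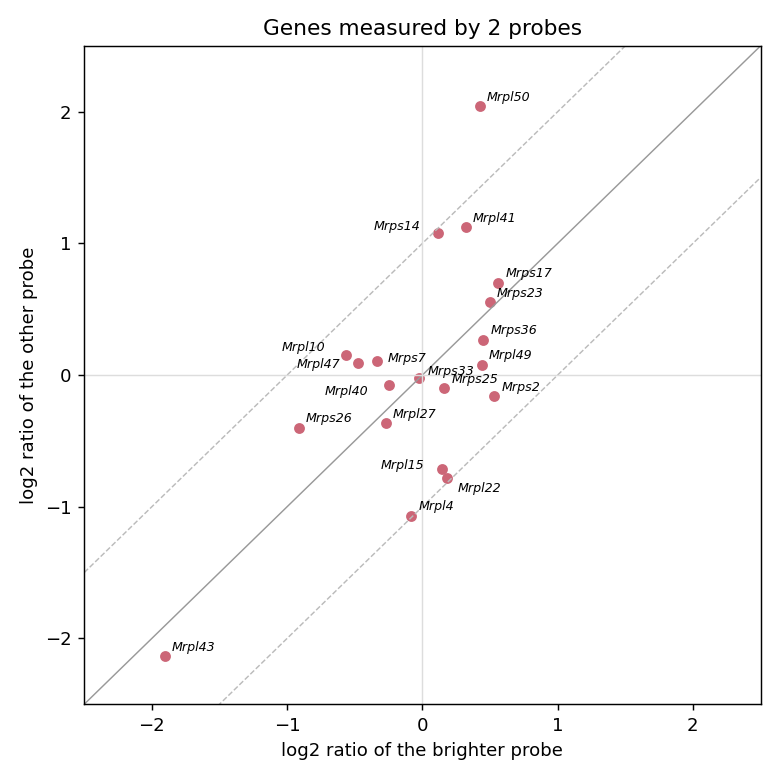
Log2 ratio (diabetic over nondiabetic) of the brighter probe (horizontal) and of the other probe (vertical) for the 20 ribosomal protein genes with 2 measured probes, with the line of equal ratios and dashed lines 2-fold from it. Mrpl43 is low on both probes, and Mrpl50 is the point outside the dashed lines.

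Repeated spots of 1 probe lay closer together. Mrpl34, a large-subunit protein, was printed at 10 spots, whose intensities ran from 677 through a median of 724 to 759 on the nondiabetic array and from 548 through 598 to 632 on the diabetic array, without overlap. The mean log2 ratio over the spots was -0.40 (SD 0.08). The brighter Mrpl50 probe, with 9 spots kept, ran from 481 through 519 to 539.9 and from 715 through 752 to 782, again without overlap, with 0.42 (SD 0.04). The dimmer Mrps35 probe, at 10 spots, ran from 47.4 through 55.1 to 63.5 and from 40.8 through 52.6 to 57.6. These ranges overlapped, and the log2 ratio of -0.22 (SD 0.24) had spots on both sides of 0. Spots of a probe share the same labeled RNA and do not stand for replicates.

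Genes that work with the mitoribosome were read from lists of 93 genes, of which 91 were on the arrays. At least 2-fold higher were 18 of the 91 and lower were 10, with a median log2 ratio of 0.18, while of all named genes with a ratio or a bound 11.0% were higher and 10.1% lower by at least 2-fold (21.1% in either direction), the background also for each list that follows. Among 18 genes of the translation factor list, which also holds tRNA-modifying genes, 5 were higher and 2 lower (median 0.31). Tufm, elongation factor Tu, which brings aminoacyl-tRNA to the ribosome, read 25.3 and 162 (2.56). Tsfm, its exchange factor, read 73.7 and 26.4 (-1.60), the opposite direction. Mrrf, the ribosome recycling factor, had 1.52 by its brighter probe and 0.22, within 2-fold, by the other. Mtres1 had 1.36, and Mto1 and Gtpbp3, which together modify the wobble base of tRNAs, had 1.14 and 1.13. The release factor Mtrf1l had -1.14. Within 2-fold were the elongation factor Gfm1 (-0.61) and the initiation factor Mtif2 (0.06). The probes of the initiation factor Mtif3 disagreed, the brighter reading 79.8 and 54.6 (-0.66) and the other 12.4 and 110.3 (3.04).

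Of 30 genes for mitoribosome assembly and rRNA modification, 6 were higher and 3 lower (median 0.20). The small-subunit rRNA methyltransferase Tfb1m went from 13.7 to 47.5 (1.68), and the large-subunit rRNA methyltransferase Mrm3 was 2.83-fold higher. The small-subunit maturation factor Rbfa had 1.49, the protease Clpp 1.37 and the GTPase Mtg2 1.02. On the nondiabetic array the endonuclease gene Ybey was not well above background, so it was at least 2.04-fold higher. Lower were the GTPase Noa1 (584 and 162, -1.96), the RNA-binding protein Fastkd2 (-1.44) and the pseudouridine synthase Trub2 (-1.12).

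Among 22 genes that charge mitochondrial tRNAs, 6 were higher and 2 lower (median 0.11). Qrsl1, a subunit of the enzyme that makes glutaminyl-tRNA by amidation, read 11.2 and 85.5 (2.82). Beside Sars2, the synthetases Cars2 (1.22) and Wars2 (1.06) were higher, and Nars2 was at least 2.82-fold higher, being not well above background on the nondiabetic array. The second probe of Cars2 gave 0.30, within 2-fold, and that of Wars2 lay in the opposite direction. Lower were Ears2 (73.5 and 12.3, -2.70) and Vars2 (-1.37 and, by its second probe, -3.67). For mitochondrial transcription and RNA handling, 1 of 21 genes was higher and 3 lower (median 0.12). Mterf2 had 1.53, and beside Twnk the RNA helicase Supv3l1 had -2.63 and the tRNA-processing nuclease Elac2 -2.18. The transcription factor Tfam had 0.21 and the RNA polymerase Polrmt 0.40. No gene of the list of 26 mitochondrially encoded proteins and other products had a named probe, so the products of the mitoribosome were not analysed here.

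Regulators of nuclear genes for mitochondria numbered 11, with 1 higher, 1 lower and a median log2 ratio of 0.24. Esrra, a nuclear receptor that acts with the PGC-1 coactivators, read 72.3 and 339 (2.11). Ppargc1a, which encodes PGC-1α, read 47.6 on the nondiabetic and 2.15 on the diabetic array, where it was not well above background, so it was at least 5.14-fold lower, and neither array had its second probe well above background. The related Ppargc1b and Pprc1 had 0.85 and 0.42. Nrf1, Gabpa, Yy1 and Myc, transcription factors known to act on genes for ribosomes or mitochondria, had 0.18, 0.22, -0.19 and -0.47. The second probes of Nrf1 and Gabpa had the opposite sign (-0.18 and -0.40). A further probe of Nrf1 read 10.13 and 27.45 and was not well above background on the nondiabetic array. Its log2 ratio was at least 1.31, so the value of Nrf1 depends on the probe.

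Start regions in the RefSeq table, 250 bases before to 50 after each start in GRCm38.p6, were held for 66 of the 75 genes and searched on both strands for the letters of these factors, chosen after the values had been seen. The ETS letters CCGGAAG were in 23 of the 66 (34.8%), against 12.9% of 17492 protein-coding genes and 41.4% of the 58 cytosolic ribosomal protein genes searched. The NRF1 letters, GCGCA, any base and GCGC, were in 13 (19.7% against 7.17%), and the YY1 letters AAGATGGCG in 7 (10.6% against 2.14%). At least 1 of the 3 was in 38 genes (57.6% against 20.0%). Of the 47 nuclear respiratory chain genes searched, 23.4% held the ETS letters, 23.4% the NRF1 letters and 10.6% the YY1 letters. The NRF1 and YY1 letters were in 8.62% and 5.17% of the cytosolic ribosomal protein genes. None of these letters is thus particular to the mitoribosomal genes. The GC box GGGCGG was about as frequent as elsewhere (48.5% against 49.2%), and TATAAA was in 5 (7.58% against 14.8%). The median log2 ratio of genes with and without the ETS letters was 0.03 and 0.15, with and without the NRF1 letters 0.22 and 0.09, and with and without the YY1 letters -0.16 and 0.12. For the GC box the medians were -0.09 with and 0.25 without, and for TATAAA 0.27 and 0.11. Past 2-fold higher and lower were 2 and 3 of 23 genes with the ETS letters and 0 and 0 of 13 with NRF1. For YY1 the counts were 2 and 0 of 7, for the GC box 1 and 4 of 32 and for TATAAA 0 and 1 of 5. Among all named genes well above background on both arrays, 9.44% were higher and 8.44% lower. Letters in a window are a description and not a binding site.

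The ratios of the mitoribosomal genes were spread more widely than those of cytosolic ribosomal and respiratory chain genes. The 78 cytosolic ribosomal protein genes had a median log2 ratio of -0.07, a middle range of -0.19 to 0.08 and an SD over genes of 0.21, with 0 past 2-fold. All 78 lay in the brightest of the 3 signal groups. The 58 nuclear subunits of the respiratory chain, 50 of them in the brightest group, had a median of 0.04 and an SD of 0.52, with 3 higher and 1 lower. The SD over the 75 mitoribosomal genes was 0.66, and 32 of them were in the brightest group. Over all named genes with a ratio or bound the SD was 0.94. Within the brightest group, 2 of 32 mitoribosomal genes (6.25%) and 3 of 50 respiratory chain genes (6.0%) were past 2-fold. There 0 of 78 cytosolic ribosomal protein genes and 6.86% of all named genes were past it. The lists differ in brightness, and its part in the difference in spread was not tested.

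**Figure D4:**
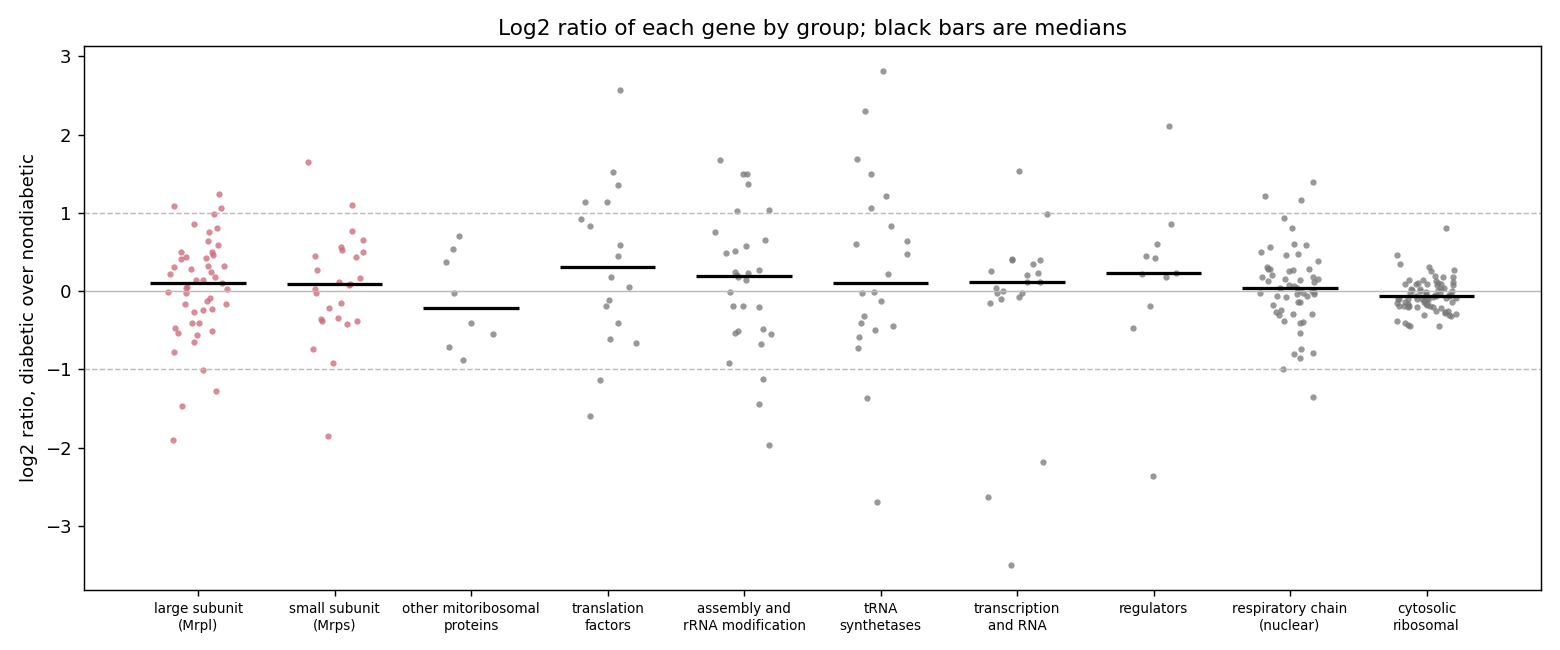
Log2 ratio (diabetic over nondiabetic, vertical) of every gene by group, with Mrpl and Mrps genes in red, the other lists in gray, black bars at the medians and dashed lines at 2-fold. The Mrpl and Mrps medians are 0.11 and 0.09, and the cytosolic ribosomal protein genes all lie within the dashed lines.

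The background correction changed how many genes passed 2-fold. With the normexp method on the median spot intensity, which adds 50 to every signal and so draws dim probes toward a ratio of 0, 1 gene was higher and 2 were lower. Mrpl43 (-1.91 as given above, -1.67 with normexp), Mrps15 (-1.16) and Mrps6 (1.37) stayed past 2-fold. Mrpl21 and Mrpl28 came to 0.20 each, the farthest toward 0 of the 10 genes. Under normexp 7.25% of all genes were past 2-fold, against 21.1% as given above. With the log2 ratios centered on their median, Mrpl48 left and Mrpl17 joined the genes past 2-fold.

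**Figure D5:**
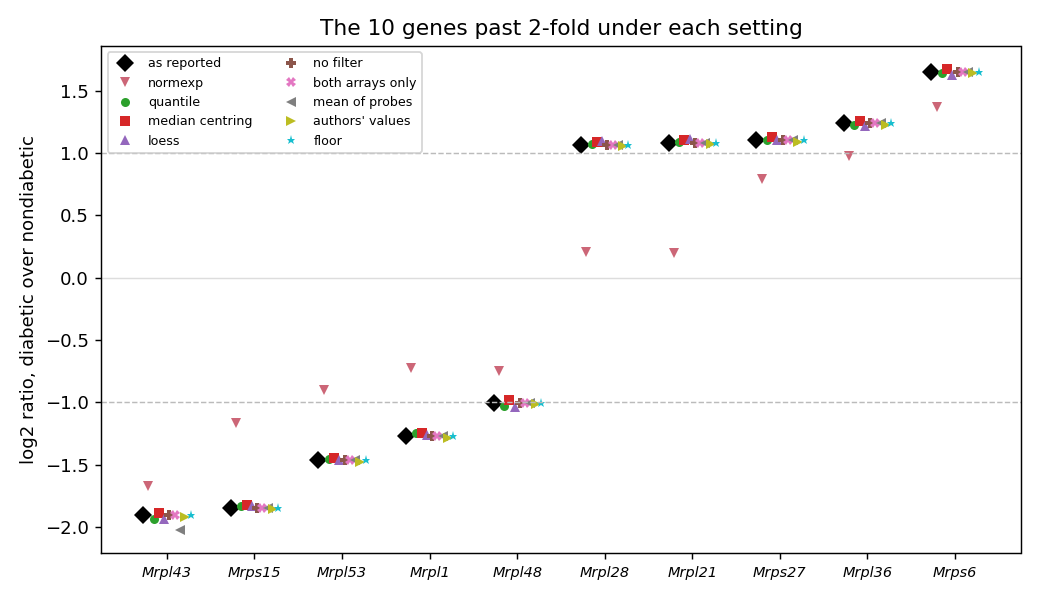
Log2 ratio (diabetic over nondiabetic, vertical) of the 10 ribosomal protein genes past 2-fold, with the value as reported (black diamond) and under each other setting, and dashed lines at 2-fold. With normexp (red triangles) Mrpl43, Mrps15 and Mrps6 stay outside the dashed lines, and the other settings lie close to the reported value.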

How the data were processed

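The authors deposited the Agilent Feature Extraction 11.5.1.1 output of 2 one-color arrays (grid mm9), 1 nondiabetic and 1 diabetic, with a processed intensity for each spot that the software had corrected for background and that was not normalized between arrays. They also deposited a table in which each column is that intensity times 1 constant, whose origin is not stated. Log2 intensities were scaled by subtracting the log2 of the 75th percentile of all non-control spots of the array. Outlier-flagged spots were dropped from both arrays, repeated spots were averaged, and each gene was read from its brightest probe by mean log2 signal. Where a probe was well above background on 1 array alone, its ratio became a bound against the higher of its own signal and the lowest signal well above background. Probes were named through transcript accessions of a RefSeq table (GRCm38.p6), which named 31845 of 59305 spots (53.7%). The scanner error of a ratio combines the software's signal errors of both arrays. With 1 array per condition no test was possible, and the number of arrays limits the precision. The labels call the mice female, while the study's methods describe male mice. The members and lists were chosen with earlier results of these data known. Named genes were those past 2-fold, the 5 highest and 5 lowest of each subunit, those with disagreeing probes or repeated spots, members with a known role, and genes of the other lists past 2-fold or known as central factors. Alternatives were normexp (offset 50, on the median intensity, since the mean was not among the columns used), quantile, loess and median-ratio centering, other probe and background rules, and the authors' table. Genes of the lists that are not named are not reported here. The calculation was tested on simulated data. Python 3.11.15, pandas 2.3.3, R 4.3.3 and limma 3.58.1 were used.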

Additional observations from a re-analysis of the deposited data

How the results depend on the processing

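With normexp background correction, 1 ribosomal protein gene was at least 2-fold higher and 2 were lower in place of 5 and 5, and 5 genes of the accessory list were higher and 3 lower in place of 18 and 10. The offset of 50 draws dim probes toward 0 by construction. This setting also changes the background model and reads the median spot intensity, and the part of each was not tested. Not every ratio moved toward 0 alone, since Mrps7 went from -0.34 to 0.025 and Mrps25 from 0.16 to 0.29. Averaging all probes of a gene moved the median log2 ratio of the 8 mitoribosomal proteins outside the naming rule from -0.21 to -0.0786, and the cause was not tested. Under the other settings the counts stayed within 1.5 times of those given, and the median of the 75 genes lay between 0.04 and 0.12 under all settings. The difference between the Mrpl and Mrps medians lay between -0.03 and 0.05 and changed sign with normexp, quantile normalization and the mean over probes. Single log2 ratios moved by more than the 0.13 spread between spots in 24 of 75 genes with normexp and in 13 with the mean over probes. No replicate could be left out. No paired analysis was possible because the groups hold a single array each and were described without tests. Depth limits the dimmest genes, Mrpl21 and Mrpl28, whose signals on the nondiabetic array were 11.3 and 14.3 beside a lowest signal well above background of 10.2.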
